A study of Mus musculus with 3 samples.

Results

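The genes described here encode the proton pump that acidifies lysosomes, proteins of the lysosomal membrane, the enzymes that digest material inside, and regulators of the organelle. They were taken by name, 37 genes of the 45799 gene symbols in the table that sets high against low density and of the 45787 in the table that sets lipopolysaccharide (LPS) treatment against none. By role, 16 were subunits of the vacuolar ATPase (V-ATPase), 5 were membrane proteins, 13 were hydrolases or their activator, and 3 were regulators. Measured RNA came from RAW264.7, a mouse macrophage line that grew out of a virus-induced tumour and was kept in RPMI medium with serum. Every group is thus the same transformed line, and no primary macrophage was included. One group was high density cells given 500 ng/ml LPS, a bacterial cell wall component, for 24 h from 24 h after seeding. Another was high density cells without LPS, and the last was low density cells without LPS. The labels give no cell numbers for either density. They also do not say how long after seeding the low density cells were harvested, so the densities may differ in culture time. These groups are called HD+LPS, HD and LD. Each had 1 library, so no difference can be set against a spread between replicates, and every value describes these libraries.

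The V-ATPase turns the energy of ATP into proton transport. Its V1 sector lies in the cytosol and splits ATP, and its V0 sector lies in the membrane and carries the protons. The resulting acid activates the hydrolases, whose loss causes the lysosomal storage diseases. The transcription factors TFEB and TFE3 bind the CLEAR element, which contains the E-box CACGTG, and raise many lysosomal genes together. In macrophages, lysosomes digest engulfed microbes and dead cells.

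Levels are FPKM, the authors' fragment numbers scaled to transcript length and to library size, so that genes can be set beside each other per length. Loci are on GRCm38. From the step of the lowest values, 1 FPKM over 1 kilobase was worth about 14.6 to 19.0 fragments. Of 13 macrophage markers, 10 were measured in each table. Among them was Csf1r, the receptor for colony-stimulating factor 1, at 178 FPKM in HD and 228 in LD. Mrc1 was not measured, at 0.0330 FPKM in LD and listed at 0 in the other libraries. Mertk and Aif1 were listed at 0 in every library, which may be an estimate that was not made. No marker of fibroblasts, epithelial cells or lymphocytes reached 1 FPKM. In each table all 6 epithelial and 7 of 9 lymphocyte markers were listed at 0. Of 8 fibroblast markers, 5 were listed at 0 for density and 4 for LPS. These entries may also be estimates that were not made. In bulk RNA, fewer cells of a kind and less RNA per cell cannot be told apart.

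Because the members are known for shared control through the E-box, their promoters were searched first. A higher share among them could thus be foreseen and is not a finding about these libraries. RefSeq promoter windows, from 250 bases before to 50 after a transcription start on GRCm38.p6, were held for 31 of the 37 genes. The E-box CACGTG, the same on both strands, lay in a window of 11 of these 31 genes (35.5%), against 2187 of the 27025 gene symbols with a window (8.09%). The longer form GTCACGTG, searched on both strands and containing the E-box, lay in 8 of the 31 (25.8%), against 689 of 27025 (2.55%). By role, the 11 genes were 4 of 11 pump subunits with a window, 3 of 5 membrane proteins, 4 of 12 hydrolases and 0 of 3 regulators. Member windows also held more G and C, at a median of 56.5% against 52.7% over all windows, and a part of this in the counts was not tested. The 27025 symbols were taken whether or not they were measured in these cells. A match describes the letters and is not evidence of binding. The following 30 bases surround the E-box nearest the start in each of the 11 genes, and capitals mark CACGTG.
Atp6v0b, chr4:117887330-117887359, minus strand: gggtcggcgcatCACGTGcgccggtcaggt
Atp6v0d1, chr8:105566050-105566079, minus strand: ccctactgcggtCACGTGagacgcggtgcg
Atp6v0e, chr17:26676387-26676416, plus strand: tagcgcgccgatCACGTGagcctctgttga
Atp6v1a, chr16:44139373-44139402, minus strand: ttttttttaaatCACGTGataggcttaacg
Lamp1, chr8:13159134-13159163, plus strand: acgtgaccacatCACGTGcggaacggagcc
Mcoln1, chr8:3500462-3500491, plus strand: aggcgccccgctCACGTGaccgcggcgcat
Cln3, chr7:126583340-126583369, minus strand: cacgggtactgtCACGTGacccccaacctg
Gla, chrX:134601182-134601211, minus strand: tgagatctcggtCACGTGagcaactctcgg
Glb1, chr9:114401018-114401047, plus strand: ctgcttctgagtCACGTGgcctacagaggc
Gaa, chr11:119267811-119267840, plus strand: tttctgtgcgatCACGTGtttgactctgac
Naglu, chr11:101070009-101070038, plus strand: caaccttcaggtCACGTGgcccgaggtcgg

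The distance of these boxes from the start differed between genes. Lamp1, which encodes an abundant glycoprotein of the lysosomal membrane, held 4 E-boxes, all between 61 and 15 bases before its start. In Atp6v0d1 the box began 3 bases before the start and in Atp6v0e it began at base 4 of the transcript. In Gla both boxes lay far upstream, the nearer one 194 bases before the start. The Cln3 boxes lay in 1 of 2 windows of that gene, the one with the more downstream start.

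**Figure D1:**
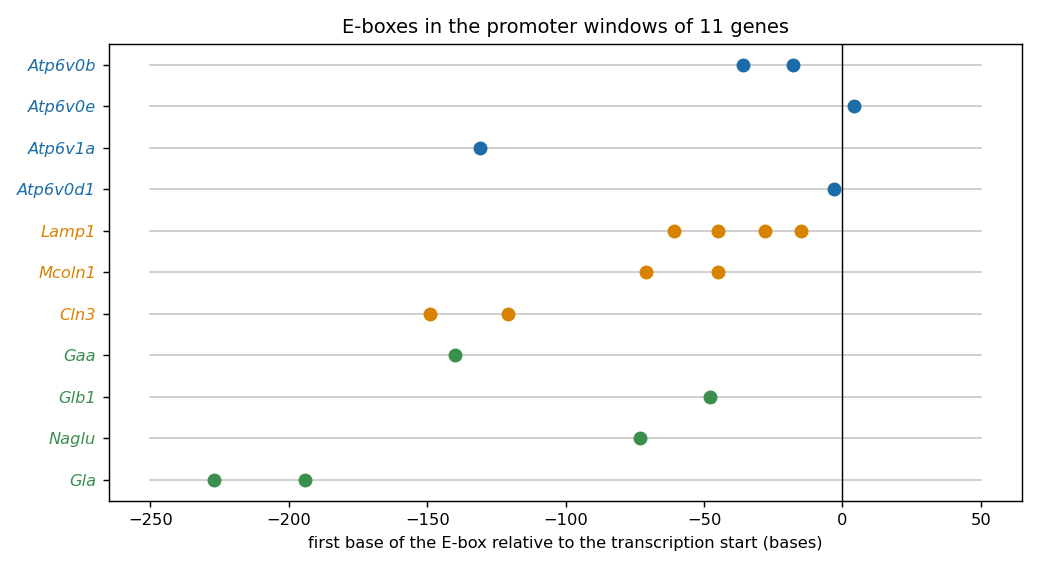
Position of each CACGTG in the promoter windows of 11 genes. The x axis gives the first base of the motif relative to the transcription start in bases, each line is the window of 1 gene, and colour marks the role (blue, V-ATPase; orange, membrane proteins; green, hydrolases). Lamp1 has 4 motifs close to the start and Gla has both of its motifs furthest from it.

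The full windows of 4 genes are given next: Lamp1 for its 4 boxes, Naglu as the member with the largest ratio of HD over LD, and Atp6v0a1 and Man2b1 as the members with the highest and lowest ratio of HD+LPS over HD. Neither window of the last pair holds CACGTG, which says only that these letters are not in these windows. Each of these 2 windows begins inside the locus counted, which starts at 101009422 for Atp6v0a1 and at 85082730 for Man2b1. The first bases of those loci were thus not searched.
Lamp1, chr8:13158911-13159210, plus strand: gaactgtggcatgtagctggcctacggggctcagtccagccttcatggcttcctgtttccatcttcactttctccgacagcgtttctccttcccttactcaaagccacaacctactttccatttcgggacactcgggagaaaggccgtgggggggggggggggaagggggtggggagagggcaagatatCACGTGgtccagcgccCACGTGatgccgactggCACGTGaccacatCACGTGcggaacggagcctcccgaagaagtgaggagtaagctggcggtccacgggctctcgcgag
Naglu, chr11:101069844-101070143, plus strand: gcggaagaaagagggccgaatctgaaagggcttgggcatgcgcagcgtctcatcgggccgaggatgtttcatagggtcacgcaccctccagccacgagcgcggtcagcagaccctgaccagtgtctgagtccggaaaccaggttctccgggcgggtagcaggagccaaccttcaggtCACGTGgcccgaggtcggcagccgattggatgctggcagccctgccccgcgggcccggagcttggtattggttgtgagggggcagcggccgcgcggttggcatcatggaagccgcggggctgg
Atp6v0a1, chr11:101010148-101010447, plus strand: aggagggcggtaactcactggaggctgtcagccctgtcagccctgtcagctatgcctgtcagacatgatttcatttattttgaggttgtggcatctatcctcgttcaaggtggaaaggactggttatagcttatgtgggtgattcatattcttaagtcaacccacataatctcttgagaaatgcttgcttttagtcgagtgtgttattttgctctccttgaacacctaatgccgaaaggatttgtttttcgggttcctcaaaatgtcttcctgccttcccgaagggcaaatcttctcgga
Man2b1, chr8:85083019-85083318, plus strand: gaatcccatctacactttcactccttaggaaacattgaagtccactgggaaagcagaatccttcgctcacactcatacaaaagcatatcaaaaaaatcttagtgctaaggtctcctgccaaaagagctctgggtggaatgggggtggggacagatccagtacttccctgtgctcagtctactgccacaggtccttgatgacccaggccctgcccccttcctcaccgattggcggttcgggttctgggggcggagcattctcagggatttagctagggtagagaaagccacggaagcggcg

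In level, the members were among the higher genes of these cells. Of the 37, 34 were measured in each table (1 FPKM or more in either library). The median member was at 86.5 FPKM in HD and 78.5 in LD, where 9.62% and 10.2% of all measured loci lay above it. The 4 highest in LD were Psap at 383 FPKM, Lamp1 at 373, Grn at 357 and Cd63 at 330. Psap encodes prosaposin, the precursor of the saposin activators of sphingolipid breakdown, Grn encodes progranulin, a lysosomal and secreted protein, and Cd63 encodes a tetraspanin of lysosomes and multivesicular bodies. With LPS the order of these 4 was Cd63 at 540, Grn at 455, Psap at 369 and Lamp1 at 326 FPKM. At the low end of the measured members were Smpd1 (acid sphingomyelinase), Atp6v0a1 and Tfeb. Smpd1 was 8.25 FPKM in HD and 6.07 in LD, Atp6v0a1 9.79 and 12.6, and Tfeb 13.5 and 7.69.

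The remaining 3 genes gave no usable ratio. Atp6v0d2, the d subunit form known from osteoclasts, was 0.343 FPKM in HD and 0.191 in LD, and 0.0928 in HD+LPS and 0.316 in HD. These values stand for about 2 to 9 fragments. Atp6v1c1 and Atp6v1e1, which encode the C and E subunits of V1, were listed at 0 in every library, each on a chromosome row and on a second row for another scaffold. Such an entry may stand for an estimate that was not made, so no level is given for them. Asah1, acid ceramidase, also had a pair of rows, and its value came from the scaffold NT_039469.1.

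**Figure D2:**
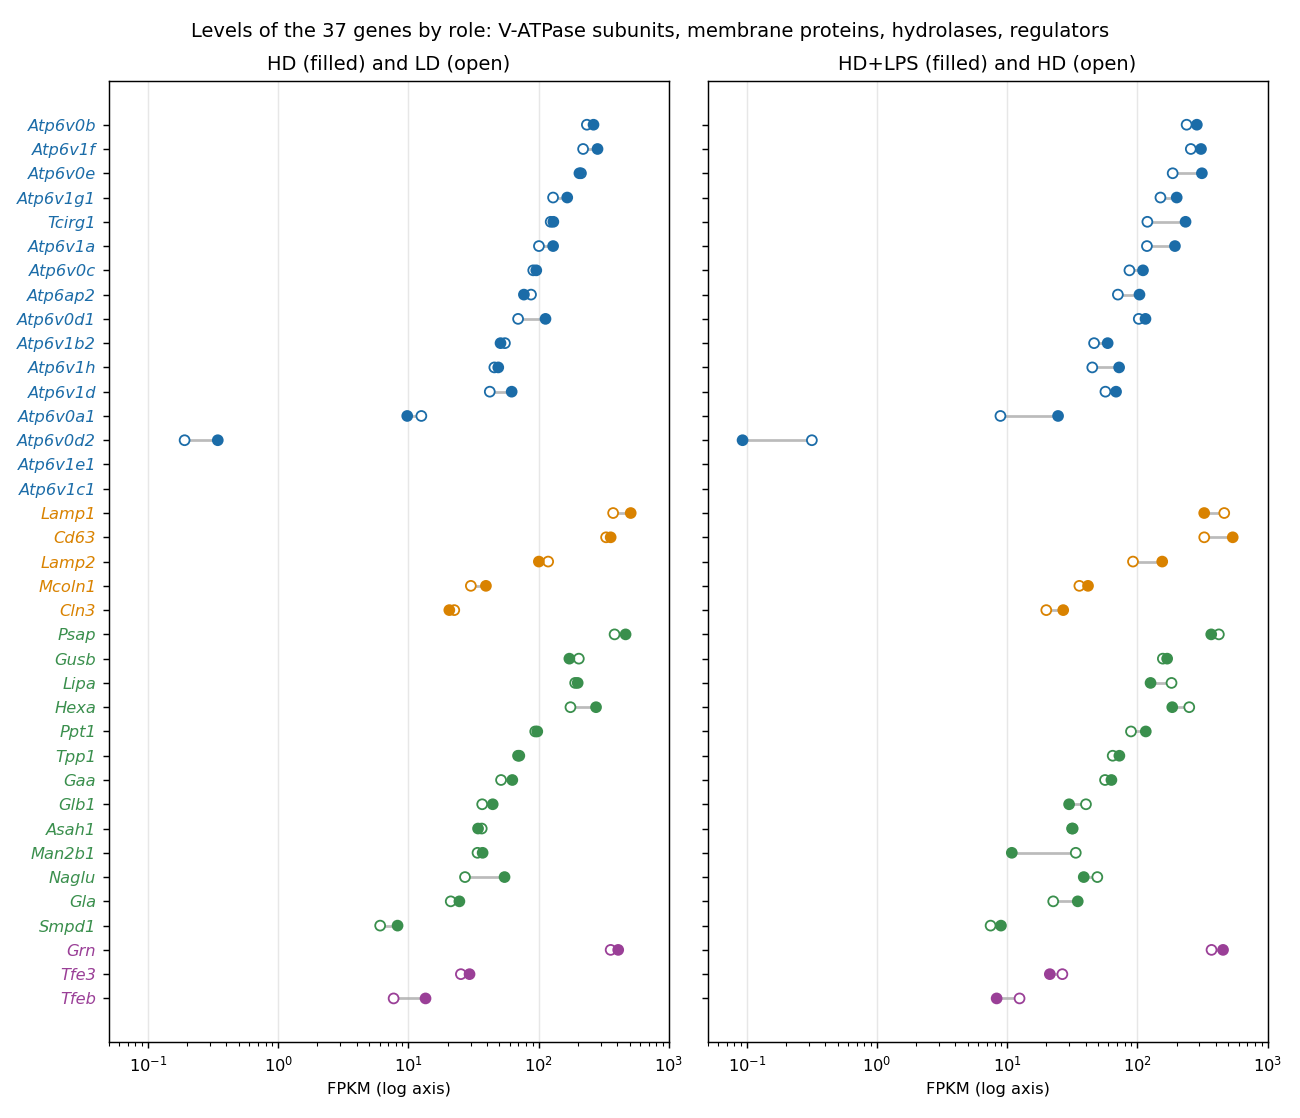
FPKM of the 37 genes on a log axis, grouped by role from top to bottom, V-ATPase subunits in blue, membrane proteins in orange, hydrolases in green and regulators in purple. Left, HD filled and LD open; right, HD+LPS filled and HD open; Atp6v1e1 and Atp6v1c1, listed at 0, have no point. The 13 measured pump genes lie to the right with LPS, while Atp6v0d2, below 1 FPKM, lies to the left. The longest line among the hydrolases, that of Man2b1, runs to the left.

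The first comparison set HD against LD. Most members lay within 1.5-fold: 4 of 34 were at least 1.5-fold higher in HD (all loci, 11.5%) and 0 at least 1.5-fold lower (all loci, 6.04%). The 4 were Naglu, Tfeb, Atp6v0d1 and Hexa, 1 pump gene, 2 hydrolases and 1 regulator. The share of members called higher was thus near that of all loci. At 2-fold, 0 were higher (all loci, 3.54%) and 0 lower (all loci, 0.899%). The median log2 ratio of the 34, on the scale of FPKM + 1, was 0.18, and that of the 10903 measured loci was 0.013. After rescaling without the 20 highest rows of the table these medians were -0.068 and -0.21, and 12 of the 34 ratios changed sign. The members' median lay above that of all loci by 0.17 as deposited and by 0.15 after rescaling, and no direction is given for the group.

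Naglu, which removes N-acetylglucosamine from heparan sulfate (chromosome 11, 101070076 to 101081188), was 54.7 FPKM in HD and 27.2 in LD, a log2 ratio of 0.98. Its row is joined with Hsd17b1, so the value may not be its own, and it was the 1 member past 1.5-fold under the rescaling. Hexa, the alpha subunit of the hexosaminidase that degrades GM2 ganglioside (chromosome 9, 59518671 to 59565112), was 276 FPKM in HD and 176 in LD, a log2 ratio of 0.65. Both enzymes remove a terminal N-acetylated amino sugar.

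Among the pump genes, Atp6v0d1, which joins the rotor of V0 to the stalk of V1 (chromosome 8, 105524461 to 105582268), was 113 FPKM in HD and 69.5 in LD, a log2 ratio of 0.69. The other 12 measured subunits lay within 1.5-fold, from -0.33 for Atp6v0a1 to 0.55 for Atp6v1d. Atp6v1d, a part of the central stalk, was 62.1 FPKM in HD and 42.2 in LD, and its locus overlaps that of Eif2s1, at 62.4 and 78.2. Atp6v1f was 283 and 219.6 FPKM (0.37), Atp6v1g1 166 and 129 (0.36), and Atp6v1a 129 and 100.6 (0.36). Nearest to 0 was Atp6v0e, at 206 FPKM in HD and 211 in LD (-0.039), and also below 0 were Atp6v1b2, at 51.0 and 55.1 (-0.11), and Atp6ap2, at 77.1 and 87.4 (-0.18). Atp6v0b, at 264 FPKM in HD and 235 in LD (0.17), Atp6v0c, at 95.9 and 90.9 (0.077), and Atp6v1h, at 49.0 and 45.7 (0.098), lay close to the median over the 13, which was 0.098. Within the V1 sector the median of 6 measured genes was 0.36, and within V0 the median of 6 was 0.072. The largest ratio among them was thus in V0, the sector with the lower median.

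Tfeb (chromosome 17, 47737037 to 47792416) was 13.5 FPKM in HD and 7.69 in LD, a log2 ratio of 0.74. It rests on about 123 and 75 fragments, and the 95% counting interval of its plain ratio ran from 0.39 to 1.25 on the log2 scale. Tfe3, its paralog, was 29.5 FPKM in HD and 25.3 in LD, and Grn 409 and 357. Tfeb had the widest counting interval of the measured members when its length was taken as 551 bases, the median of its 12 coding transcripts. A longer transcript would give more fragments and a narrower interval, so this place among the members depends on that length. The Tfeb ratio was within 1.5-fold at a pseudocount of 5 FPKM.

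The membrane proteins differed in sign. Lamp1 was 510 FPKM in HD and 373 in LD (log2 ratio 0.45), and Mcoln1, the calcium channel TRPML1, was 39.4 and 30.2 (0.37) in a row joined with Pnpla6. Lamp2, which like Lamp1 coats the inner face of the membrane, was 100.4 FPKM in HD and 118 in LD (-0.24). The remaining members, Cd63 and Cln3, were at 0.12 and -0.12. Of the hydrolases other than Naglu and Hexa, 11 ran from -0.24 for Gusb, beta-glucuronidase, at 172 FPKM in HD and 204 in LD, to 0.39 for Smpd1. The most abundant of these, Psap, was 466 FPKM in HD and 383 in LD (0.28), and Lipa was 199.5 and 191 (0.064). Gaa was 62.8 and 51.4 (0.28), Glb1 44.4 and 36.9 (0.26), Gla 24.6 and 21.1 (0.21), and Man2b1 37.1 and 33.9 (0.13). Ppt1, whose locus overlaps the abundant Cap1 at 312 FPKM in HD and 328 in LD, was at 0.052, Tpp1 at 0.033 and Asah1 at -0.091.

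The second comparison set HD+LPS against HD. The pump genes among the members shared 1 sign. All 13 measured had a ratio above 0, from 0.17 to 1.37, with a median of 0.41, where 52.0% of all loci had a ratio above 0. Of these 13, 5 were at least 1.5-fold higher (all loci, 19%). The hydrolases split, 7 above 0 and 6 below, with a median of 0.016, 1 at least 1.5-fold higher and 1 lower. Among the 34 measured genes of all roles, 8 were higher at 1.5-fold (all loci, 19%) and 1 was lower (all loci, 16%). At 2-fold, 1 was higher (all loci, 8.6%) and 1 lower (all loci, 5.84%). These 8 of 34 lie near the share over all loci, and the 1 lower gene lies below its share. The median ratio of the members was 0.26, against 0.029 over 11001 loci. The 13 measured pump genes kept ratios above 0 under each scaling, pseudocount and treatment of rows that was run.

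Tcirg1 and Atp6v0a1 encode alternative forms of the a subunit, through which protons pass. Tcirg1, the a3 form of osteoclasts and immune cells (chromosome 19, 3896050 to 3907133), was 234 FPKM in HD+LPS and 119 in HD, a log2 ratio of 0.97. Atp6v0a1 (chromosome 11, 101009422 to 101063719), the a1 form, was 24.6 FPKM in HD+LPS and 8.88 in HD, a log2 ratio of 1.37. The a2 gene, Atp6v0a2, was 13.0 and 12.2 FPKM, and Atp6v0a4 was listed at 0. Tcirg1 made up 86.2% of the summed FPKM of the a forms in HD+LPS and 85.0% in HD, and Atp6v0a1 made up 9.04% and 6.32%. In the density table Tcirg1 was 130 FPKM in HD and 124 in LD, and Atp6v0a1 9.79 and 12.6. The a1 and a2 genes thus changed places in the order of levels between the HD+LPS and HD libraries, below Tcirg1 in each.

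**Figure D3:**
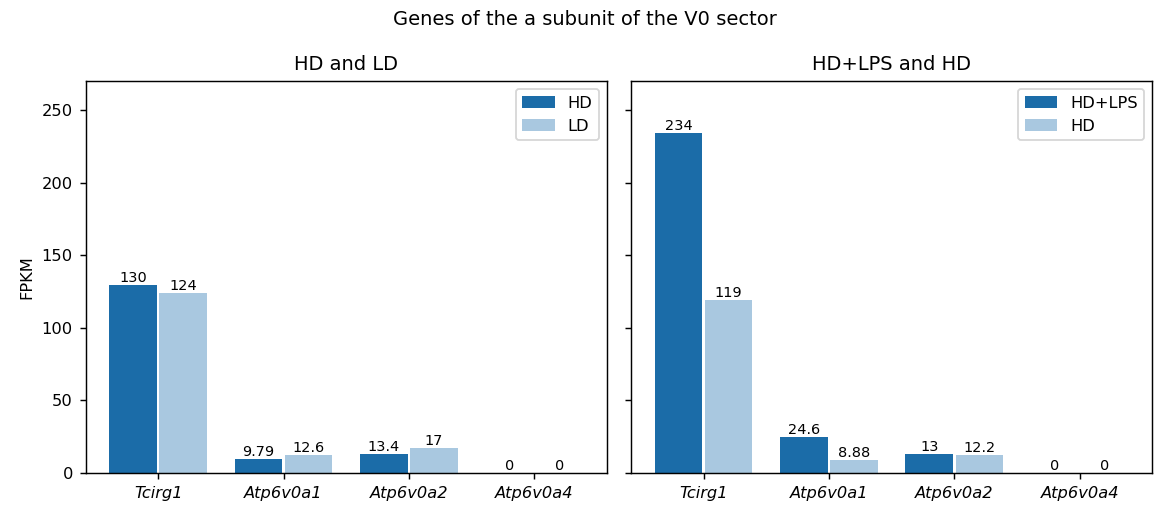
FPKM of the 4 genes of the a subunit, with HD beside LD on the left and HD+LPS beside HD on the right; bars start at 0 and are 1 library each. Tcirg1 is the highest in all libraries, and Tcirg1 and Atp6v0a1 are higher in HD+LPS while Atp6v0a2 is at 13.0 and 12.2.

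The other pump genes at least 1.5-fold higher with LPS came from both sectors. Atp6v0e, a small V0 membrane subunit (chromosome 17, 26676396 to 26699647), was 313 FPKM in HD+LPS and 187 in HD (log2 ratio 0.74). Atp6v1a, the subunit of V1 that splits ATP (chromosome 16, 44085402 to 44139702), was 194 and 118 (0.71). Atp6v1h, the subunit that regulates coupling of the sectors (chromosome 1, 5082978 to 5163213), was 72.4 and 45.05 (0.67). Atp6v0e made up 96.7% of the summed FPKM of the e forms in HD+LPS and 93.8% in HD, the rest being Atp6v0e2. In sum the 6 measured V1 genes were 903 FPKM in HD+LPS and 674 in HD, and the 6 of V0 were 1084 and 743.

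Below 1.5-fold were 8 pump genes. Atp6ap2, the accessory protein also known as the prorenin receptor, had a log2 ratio of 0.54, at 104 FPKM in HD+LPS and 70.9 in HD. Atp6v1g1, of the peripheral stalk, was at 0.41 and overlaps Gm38592, which also differed between these libraries. The proteolipid genes Atp6v0c and Atp6v0b, whose products form the rotor ring, were at 0.34 and 0.26, Atp6v0b being 286 FPKM in HD+LPS and 239 in HD. Atp6v1b2, the nucleotide-binding B subunit, was at 0.34, the stalk genes Atp6v1d and Atp6v1f were at 0.27 and 0.26, and Atp6v0d1 was at 0.17. The summed level of the 16 pump genes was 2091 FPKM in HD+LPS and 1489 in HD, 0.293% and 0.213% of the FPKM of the table. Atp6v1c1 and Atp6v1e1 enter this sum as listed, at 0, so any RNA of these genes is left out.

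**Figure D4:**
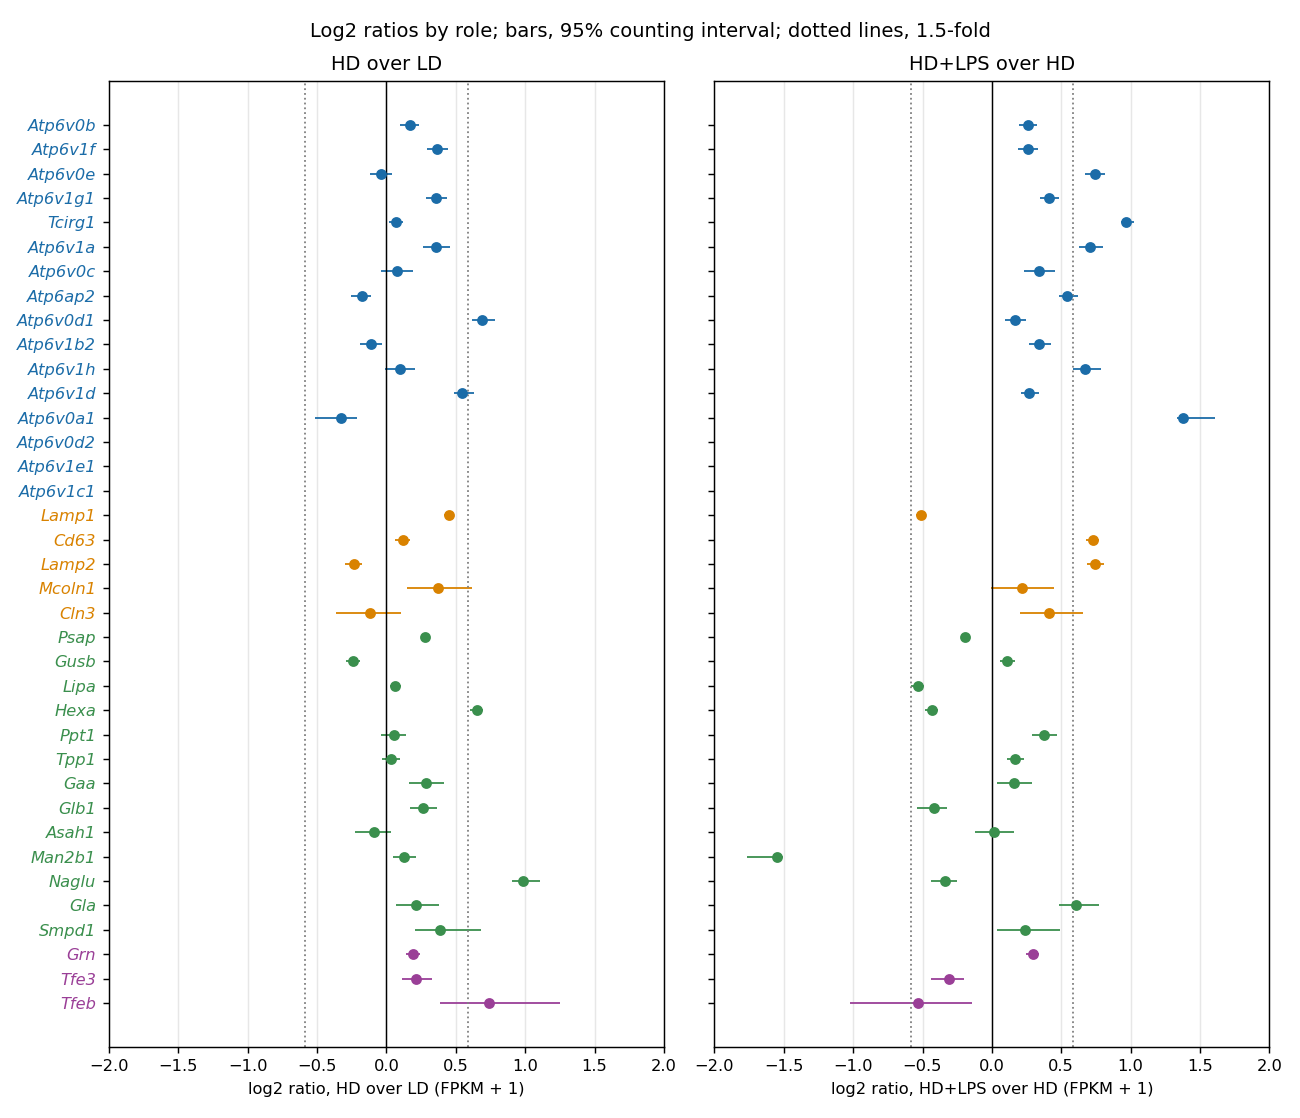
Log2 ratios of the 34 measured members (FPKM + 1), HD over LD on the left and HD+LPS over HD on the right, in the colours of the roles. Bars are 95% counting intervals of the plain FPKM ratio and cover counting error only, dotted lines mark 1.5-fold, and the 3 genes without a point were not measured. On the right every pump gene lies above 0, from 0.17 to 1.37, while the hydrolases run from -1.55 to 0.60.

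Among the hydrolases, Man2b1, the lysosomal alpha-mannosidase that trims glycoprotein sugars (chromosome 8, 85082730 to 85098739), was 10.9 FPKM in HD+LPS and 33.6 in HD, a log2 ratio of -1.55. Its 95% counting interval ran from -1.76 to -1.50. The next lowest was Lipa, acid lipase, which frees cholesterol and fatty acids from lipoprotein esters, at 126 and 183 FPKM (-0.53). Hexa was 185 FPKM in HD+LPS and 250.4 in HD (-0.43), Glb1, beta-galactosidase in a row joined with Tmppe, was at -0.42, Naglu at -0.34 and Psap at -0.19. These 6 genes were those below 0, and 1 of them was past 1.5-fold.

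Gla, alpha-galactosidase A, which removes galactose from globotriaosylceramide (chromosome X, 134588169 to 134601005), was 34.8 FPKM in HD+LPS and 22.6 in HD. Its log2 ratio of 0.60 lay just past 1.5-fold, and it was below that at a pseudocount of 5 FPKM, after centring on the median of all loci and after the rescaling. Ppt1, which removes palmitate from proteins, was at 0.37, with the overlapping Cap1 at 258 FPKM in HD+LPS and 284 in HD. The others were Smpd1 at 0.24, the peptidase gene Tpp1 at 0.17, the glycogen-degrading Gaa at 0.16, Gusb at 0.11 and Asah1 at 0.016. The sign of Asah1 turned after the rescaling and after centring. The summed level of the 13 genes was 1257 FPKM in HD+LPS and 1408 in HD.

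The ratios of the related membrane glycoproteins Lamp1 and Lamp2 had opposite signs. Lamp2 (chromosome X, 38399647 to 38456460) was 155 FPKM in HD+LPS and 92.5 in HD, a log2 ratio of 0.74. Lamp1 (chromosome 8, 13159161 to 13175338) was 326 and 465, a log2 ratio of -0.51, short of 1.5-fold. Cd63 (chromosome 10, 128896231 to 128912822) was 540 FPKM in HD+LPS and 326 in HD, a log2 ratio of 0.73. Cln3, the membrane protein mutated in human juvenile Batten disease, was at 0.41. Its locus overlaps Apobr, at 24.6 FPKM in HD+LPS and 23.0 in HD, and Il27, at 2.87 and 0.0515. Mcoln1 was at 0.21.

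Of the regulators, none was past 1.5-fold with LPS. Tfeb was 8.30 FPKM in HD+LPS and 12.4 in HD (log2 ratio -0.53, counting interval -1.02 to -0.14), Tfe3 was 21.3 and 26.5 (-0.31), and Grn was 455 and 371 (0.29). RNA levels do not show the activity of these factors, which is known to be set by phosphorylation and entry to the nucleus.

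**Figure D5:**
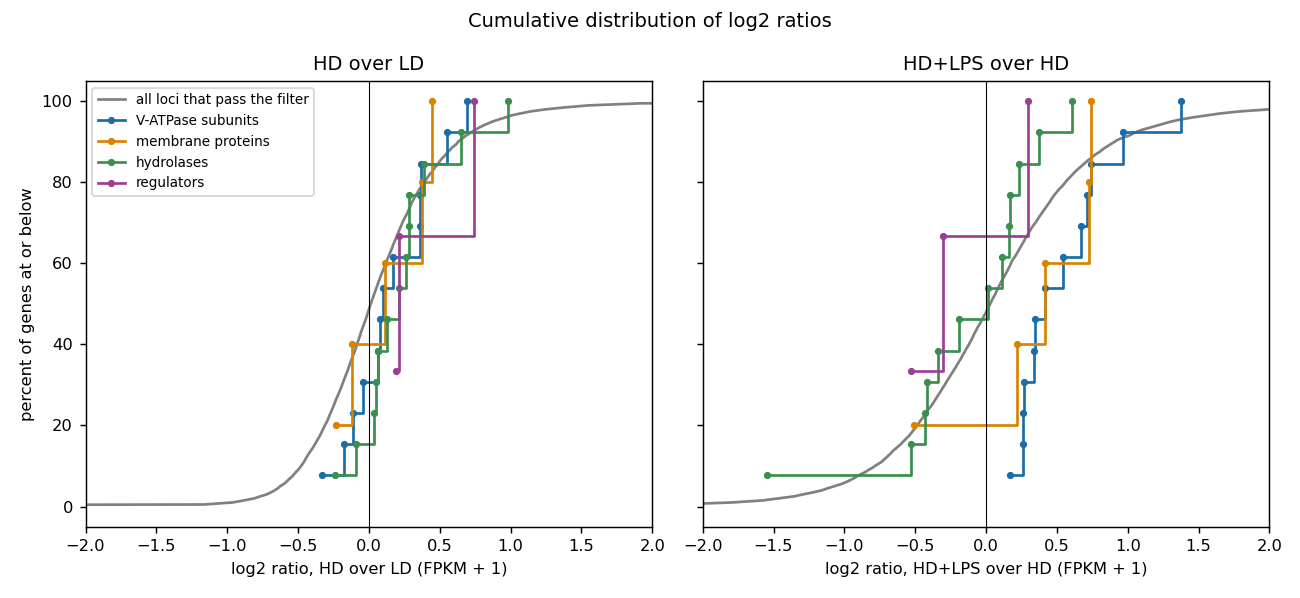
Cumulative share of genes at or below each log2 ratio (FPKM + 1), HD over LD on the left and HD+LPS over HD on the right; grey, all measured loci; coloured steps, the 4 roles, each point a gene. On the right the pump genes begin at 0.17, to the right of 0, and the hydrolases run on both sides of the grey line.

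The 4 members higher at high density had LPS ratios of 0.17 (Atp6v0d1), -0.43 (Hexa), -0.34 (Naglu) and -0.53 (Tfeb). Lamp1 was at 0.45 for density and -0.51 for LPS, and Lamp2 at -0.24 and 0.74. Both comparisons share the HD library, once above and once below the line, so opposite signs can come from that library alone and no relation between them was computed. The tables were scaled separately, and the HD library's values for 35 members differed between them by a median log2 ratio of -0.13, LPS table over density table. In the promoter windows, the 11 genes with an E-box had a median ratio of 0.28 for density and 0.21 for LPS, and the 19 measured genes with a window but no E-box had 0.12 and 0.26.

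In the authors' deposited table for density none of the members was called significant, nor was any in the authors' deposited table for LPS (all named loci with a test, 0.251% and 0.349%). The lowest q-values of members in the authors' deposited tables were 0.847 for Naglu with density and 0.605 for Man2b1 with LPS.

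Other genes of the organelle were taken in 8 lists by function, and their counts at 1.5-fold stand beside 11.5% of all loci higher and 6.04% lower in HD, and 19% higher and 16% lower with LPS. Of 17 further V-ATPase subunits and assembly or regulatory factors, 10 were measured, 0 were past 1.5-fold with density, and 2 were higher and 1 lower with LPS. Those were Wdr7 and Dmxl1, of the complex that assembles the pump, at 11.2 FPKM in HD+LPS against 5.49 in HD and at 10.0 against 6.15, and Rogdi, of the same complex, at 9.77 against 25.6. Unlike the 13 pump members, the 10 measured genes of this list did not share 1 sign with LPS. Of these, 6 had a ratio above 0 and 4 below, with a median of 0.23. Of 42 other hydrolases and activators 34 were measured, 6 higher and 1 lower in HD, and 7 higher and 6 lower with LPS. The ratios of this list with LPS were also on both sides of 0, with a median of -0.016. Gm2a, the activator that works with the Hexa product, was 40.7 FPKM in HD and 19.97 in LD. Hyal1, a hyaluronidase in a row joined with Hyal3 and Naa80, was 139 and 14.3, and Pld3, a nuclease, 43.3 and 23.3. With LPS, Pld3 was 92.2 FPKM in HD+LPS and 39.0 in HD, Sgsh, a heparan sulfatase, 4.30 and 10.6, and Naaa, an amide hydrolase, 2.11 and 6.10.

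Cathepsins, the lysosomal proteases, had a median ratio of 0.54 with LPS, against 0.029 over all loci, 4 of 10 measured being higher (all loci, 19%) and 1 lower (all loci, 16%). Ctsd was 928 FPKM in HD+LPS and 612 in HD, Ctsb 2166 and 1196, Ctsl 406 and 237, Ctsc 40.6 and 12.9, and Ctsf 15.9 and 57.3. At high density 2 of 11 were higher and 1 lower, with Ctsa, which also protects beta-galactosidase, at 981 FPKM in HD and 560.4 in LD, Ctsf at 62.7 and 32.4, and Ctsc at 14.1 and 36.6. In enzyme sorting, 22 of 24 genes were measured, with 1 higher and 1 lower in HD, and 3 higher and 0 lower with LPS. M6pr, the receptor that carries tagged enzymes to the lysosome, was 212 FPKM in HD+LPS and 90.7 in HD, Cln8 82.8 and 34.2, and Gnptg, a subunit of the tagging enzyme, 6.27 and 3.34. At high density Cln8 was 37.8 FPKM in HD and 23.1 in LD, and Gnptg 3.77 and 6.52.

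Of 32 symbols listed as other membrane proteins, 31 were in each table and 27 were measured. Of these 27, 2 were higher and 1 lower in HD, and 6 higher and 2 lower with LPS. The list also holds Npc2, a soluble lysosomal protein, which was 1 of the 2 higher in HD. Slc15a3, a histidine and peptide carrier, was 390.5 FPKM in HD+LPS and 22.9 in HD, the cholesterol exporter Npc1 40.7 and 13.3, Hgsnat, which acetylates heparan sulfate, 33.1 and 10.1, and the channel Tpcn1 14.7 and 45.6. At high density Slc15a4 was 31.2 FPKM in HD and 17.4 in LD, Npc2 108 and 68.1, and Slc15a3 25.4 and 39.6. Of 26 genes in MiT/TFE and mTORC1 regulation, 23 were measured for density, 1 higher and 0 lower, and 24 for LPS, 5 higher and 2 lower. Mitf, of the same factor family as Tfeb, was 13.0 FPKM in HD and 7.89 in LD, and 12.2 in HD+LPS and 11.97 in HD, while Tfec was 0.151 FPKM in LD and listed at 0 otherwise. The folliculin partners Fnip1 and Fnip2, which act on TFEB and TFE3 through the Rag GTPases, were 31.0 FPKM in HD+LPS against 12.6 in HD and 100.3 against 51.5. Gsk3b was 17.9 and 8.48 and Myc 5.01 and 0.690.

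For lysosome movement and fusion, 22 of 24 genes were measured, 2 higher and 0 lower in HD, and 2 higher and 2 lower with LPS. Borcs6, of the complex that moves lysosomes outward, was 26.3 FPKM in HD and 14.1 in LD, and 11.4 in HD+LPS and 23.5 in HD. Vps39, of the fusion complex HOPS, was 26.0 FPKM in HD and 16.9 in LD. With LPS, the fusion gene Stx8 was 21.3 FPKM in HD+LPS and 11.3 in HD, Bloc1s2 59.6 and 35.9, and Borcs7 4.25 and 7.31. For the response to lysosome damage 17 of 18 were measured, 3 higher and 0 lower in HD, and 6 higher and 0 lower with LPS. Sqstm1, an autophagy receptor, was 1335 FPKM in HD+LPS and 146 in HD, Lgals9, a galectin, 83.1 and 4.87, Hmox1 776 and 193, and the kinase gene Lrrk2 11.3 and 3.55. At high density Tecpr1 was 41.2 FPKM in HD and 19.3 in LD, Hmox1 213 and 116, and Lgals3 298 and 192. Gpnmb, a TFE3 and MITF target, was 1009 FPKM in HD and 813 in LD, and 686 in HD+LPS and 934 in HD.

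RAW264.7 cells can become osteoclasts, which also use Tcirg1, so osteoclast markers stand beside the pump values. Of 11 listed, 10 were in each table and 6 were measured. The 6 were not the same, since Ocstamp was measured only for density and Mmp9 only for LPS. The summed level of the 10 was 70.6 FPKM in HD+LPS and 44.6 in HD, and 48.4 in both HD and LD of the density table. Mmp9 made up most of the LPS difference, at 25.1 FPKM in HD+LPS and 0.731 in HD. Tnfrsf11a was also at least 1.5-fold higher (all loci, 19%), at 7.18 FPKM in HD+LPS and 4.19 in HD. The other 4 measured markers lay within 1.5-fold, Ctsk at 11.7 and 7.77 FPKM, Acp5 at 4.54 and 4.47, Dcstamp at 12.2 and 14.5 and Nfatc1 at 9.84 and 11.9. Below 1 FPKM, Ocstamp was listed at 0 in HD+LPS and was 0.905 in HD, and Calcr was listed at 0. The summed level of the 13 macrophage markers was 4443 FPKM in HD+LPS and 3912 in HD, and 4301 in HD and 5051 in LD. Cd68 enters these sums through a row joined with Eif4a1 and Mpdu1, so its part may not be its own. That row was 1433 FPKM in HD+LPS and 1100 in HD, and 1211 in HD and 1423 in LD. In the density table the Tyrobp row is joined with Nfkbid. Markers listed at 0 enter the macrophage and osteoclast sums as 0. Of the 10 macrophage markers measured, 3 were at least 1.5-fold higher with LPS (all loci, 19%), namely Adgre1, Itgam and Cd14. Lower were 2 (all loci, 16%), Lyz2 and Tyrobp. Adgre1 was 75.5 FPKM in HD+LPS and 18.2 in HD, Lyz2 805 and 1311, Tyrobp 429 and 685, and Csf1r, within 1.5-fold, 114 and 165. At high density 0 of the 10 were higher (all loci, 11.5%) and 3 were lower (all loci, 6.04%). These 3 were Itgam at 26.1 FPKM in HD and 43.1 in LD, Cd14 at 482 and 737, and Fcgr1 at 20.9 and 34.1. The median of the list with density was -0.27, with 8 of 10 ratios below 0. Of 9 neutrophil markers 3 were measured, and with LPS S100a8 was higher, at 8.70 FPKM in HD+LPS and 1.26 in HD, Elane was lower, at 0.0954 and 1.40, and Csf3r was 2.25 and 2.18. Of 8 dendritic cell markers 1 was measured, Itgax, at 0.670 FPKM in HD+LPS and 1.75 in HD. The part of these differences in the pump and hydrolase ratios was not tested.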

How the data were processed

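RNA of 3 RAW264.7 libraries was sequenced, 1 per group. The builds GRCm38 and mm10 and the tools TopHat2, Cuffdiff, fastp and FastQC stand in the submitters' processing notes. Versions, annotation, strand and scaling option remain not given in the sources used here. From these steps the authors deposited 2 tables of FPKM (fragments scaled to transcript length and library size), 1 per pair of libraries. Per the file headers these also hold a log2 ratio, a q-value, a p-value and a test score.

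Genes were read from the comma-split gene column, with the row of largest summed FPKM per symbol. A locus counted as measured where its status was not a failure and 1 of its libraries reached 1 FPKM. Ratios are log2((FPKM + 1)/(FPKM + 1)) within a table, which understates changes of low genes. No p-value was computed, since no group has a second library. Calls are at 1.5-fold. The alternatives changed the pseudocount, the filter, the scaling, the treatment of several or joined rows, and the fold. Fragment numbers were approximated from the step of the lowest FPKM values and the median length of a gene's coding transcripts in GENCODE M21. Short transcript models lower that median and with it the fragment numbers. Exact 95% binomial intervals on these numbers cover counting error only. They are intervals of the plain FPKM ratio. The steps were tested on simulated data. Promoters are from RefSeq, GRCm38.p6, and loci are given 1-based.

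The members, gene lists and thresholds were chosen with earlier results of these data known. All 37 members are covered. From each other list the rule named up to 4 genes past 1.5-fold at 5 FPKM or more in the higher library, taken by size, and Tfec, Mitf, Acp5, Ctsk, Ctsd and Gpnmb whatever their values. Some genes this rule names are not reported here. The files' values were analysed with Python 3.11.15, pandas 2.3.3 and SciPy 1.17.1. No per-sample column was left unused.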

Additional observations from a re-analysis of the deposited data

How the results depend on the processing

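At high against low density, the median log2 ratio of the members was -0.068 and 1 member, Naglu, was past 1.5-fold after rescaling both libraries without their 20 highest rows, where the median of all loci was -0.21. Under that rescaling 12 of 34 members changed sign and the medians of all 4 roles were below 0, so no direction at high density is given for the group or its roles. At 2-fold, 0 members were higher for density and 1 for LPS. The other pseudocounts, filters, centring and row treatments left the counts of higher members at 3 or 4 for density and at 7 or 8 for LPS, and no member past 1.5-fold reversed. Without rows that name more than one gene, the membrane protein medians were -0.0022 for density and 0.57 for LPS. No paired analysis was possible because each group has 1 library and the ratios come from no test. By the approximate fragment numbers, which depend on the transcript length used, depth limits Atp6v0d2 and, among measured members, Tfeb most.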

Other observations

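Rows of the deposited tables lie over members' loci and differed in the LPS table. Gm38592, which overlaps Atp6v1g1, was 14.1 FPKM with LPS and 1.08 FPKM without it, and Gm12841, which overlaps Atp6v0b, was 17.2 and 6.50 FPKM in the HD+LPS and HD libraries. Gm38250, which overlaps Atp6v0d1, was 0.949 FPKM in HD+LPS and 1.70 in HD, and Gm39487, which overlaps Tfe3, was 1.63 and 1.15 FPKM. The strand setting of the counting was not stated, so these rows and the members under them cannot be fully separated.

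Symbols with a row both on a chromosome and on another scaffold were listed at 0 in both libraries in 606 of 1101 protein-coding cases in the density table (55.0%), against 7329 of 20175 symbols on a chromosome only (36.3%). In the LPS table the counts were 597 of 1101 (54.2%) and 7331 of 20175 (36.3%). Atp6v1c1 and Atp6v1e1 have such a pair of rows.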
